A study of Mus musculus with 62 samples.

Results

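The genes of voltage-gated sodium and calcium channels were described in 2 brain regions of stressed and unstressed mice, the nucleus accumbens (NAc) and the prefrontal cortex (PFC). Genes were taken by symbol, as those beginning with Scn and a digit or with Cacna, Cacnb or Cacng, which gave 33 of the 11121 genes counted. They were 11 sodium channel genes, with 7 pore subunits and 4 beta subunits, and 22 calcium channel genes, with 8 pore subunits, 4 alpha2delta, 4 beta and 6 gamma subunits. Another 7 symbols of the annotation fit the same rule and were not analysed here (Cacna1f, Cacna1s, Cacng1, Cacng6, Scn4a, Scn10a and Scn11a). All mice were wild-type males of the strain C57BL/6j, 15 weeks old. The CTR group was left unstressed, and the mCRS group went through multimodal chronic restraint stress, in which mice were restrained on successive days for weeks under changing conditions and tissue was taken some days after the last session. BRB-seq, which reads the 3′ ends of transcripts, was run on bulk RNA of the dissected tissue and gave 15 PFC CTR, 15 PFC mCRS, 16 NAc CTR and 16 NAc mCRS libraries. Levels are CPM, the counts of a gene relative to the library total after TMM normalization, and n is the number of libraries. Both regions were taken from the same cohorts of mice, and the sources do not state which PFC and NAc libraries came from 1 mouse.

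Voltage-gated sodium channels open on depolarization and carry the upstroke of the action potential, and their beta subunits set gating and surface level. Voltage-gated calcium channels turn depolarization into calcium entry, which drives transmitter release (P/Q- and N-type), links activity to transcription (L-type) and supports burst firing (T-type). Alpha2delta and beta subunits carry the calcium channel pore to the membrane, while most gamma subunits of the brain, the TARPs, serve as partners of AMPA-type glutamate receptors. Cortical tissue holds mainly excitatory pyramidal neurons, and the NAc, as part of the striatum, mainly GABAergic spiny projection neurons.

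Library totals lay between 945286 and 4857359 counts. The summed level of 14 striatal projection neuron markers was 772 to 2217 CPM in PFC CTR and 4731 to 10659 CPM in 15 of the NAc CTR libraries, but 674 CPM in NAc CTR library 7, below every PFC CTR library. That library also held the highest level of hypothalamus markers, 2646 CPM, against at most 725 CPM in the other NAc CTR libraries. Each called region difference of CTR mice is given with and without it. In NAc mCRS library 10 the choroid plexus markers summed to 23863 CPM, against at most 533 CPM in any other library. The share of the listed genes with a count was 87.1% ± 4.42 (SD, n = 15) in PFC CTR, 82.3% ± 6.22 (SD, n = 15) in PFC mCRS, 90.2% ± 7.13 (SD, n = 16) in NAc CTR and 88.5% ± 7.43 (SD, n = 16) in NAc mCRS. Per the methods, RNA came from a single hemisphere of each animal, so each library of a region is taken as 1 mouse. In bulk tissue fewer cells of a type and less RNA per cell cannot be told apart.

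Most of the channel genes that differed between the regions of unstressed mice were auxiliary subunits. Of the 33 genes, 28 had enough counts to be tested, and 7 differed between PFC CTR and NAc CTR at an FDR below 0.05 (edgeR's quasi-likelihood test, Benjamini-Hochberg over the 9932 genes tested). Cacna2d1, Cacnb3 and Scn2a were higher in the PFC, where 4.23% of all genes tested were called higher. Scn4b, Cacna2d2, Cacng4 and Cacna2d3 were lower in the PFC, where 2.09% of all genes tested were called lower. The 7 genes were 6 of the 15 auxiliary subunits tested and 1 of the 13 pore subunits tested. The median log2 fold change of PFC over NAc was 0.02 over the 28 channel genes and -0.02 over all genes. For 0 of the 28 did the CPM ranges of the 2 groups stay apart, as they did for 0.423% of all genes tested.

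The alpha2delta subunits split by region. These extracellular, membrane-anchored subunits raise the number of calcium channels at the surface, and Cacna2d1 and Cacna2d2 encode the subunits that bind gabapentin. All 3 that were tested were called, Cacna2d1 higher in the PFC and Cacna2d2 and Cacna2d3 higher in the NAc. The lowest, median and highest levels of Cacna2d1 (ENSMUSG00000040118, chr5:15934691-16374511, plus strand, GRCm38) were 119, 206 and 459 CPM in PFC CTR and 42.7, 109.8 and 171 CPM in NAc CTR. All 15 PFC libraries lay above the NAc median, and 10 of them above every NAc library. The difference was 2.37-fold, a log2 fold change of 1.24 ± 0.23 (SE; FDR = 9.81e-05 by edgeR), and 1.18 without NAc CTR library 7 (FDR = 1.71e-04).

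Cacna2d2 (ENSMUSG00000010066, chr9:107399612-107529343, plus strand) had 0, 27.6 and 82.0 CPM in PFC CTR and 15.3, 153 and 272 CPM in NAc CTR. All 15 PFC libraries fell below the NAc median, while NAc CTR library 13, the lowest, lay within the PFC range. Its level was 4.37-fold higher in the NAc (log2 fold change -2.13 ± 0.42, FDR = 2.36e-04 by edgeR), with -2.08 and an FDR of 4.42e-04 without NAc CTR library 7. Cacna2d3 (ENSMUSG00000021991, chr14:28904943-29721864, minus strand) had 0, 44.8 and 99.6 CPM in PFC CTR and 53.2, 143 and 266 CPM in NAc CTR, where library 7 was the lowest. It was 3.42-fold higher in the NAc (log2 fold change -1.78 ± 0.35, FDR = 2.61e-04 by edgeR), and without library 7 the value was -1.83 (FDR = 1.47e-04). Without that library 13 of the 15 PFC libraries lay below every NAc library, against 10 with it.

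As shares of the counts of all 4 alpha2delta genes, the make-up of this family separated the regions in every library. Cacna2d1 gave 73.9% ± 13.2 (SD, n = 15) of these counts in PFC CTR, 75.9% ± 13.03 (SD, n = 15) in PFC mCRS, 25.6% ± 9.54 (SD, n = 16) in NAc CTR and 24.5% ± 12.2 (SD, n = 16) in NAc mCRS. The lowest share of any PFC library was 46.5%, in PFC CTR library 3, and the highest of any NAc library was 44.3%, in NAc mCRS library 5. NAc CTR library 7, the one low in striatal markers, had 14.5% from Cacna2d1 and 66.7% from Cacna2d2. The shares rest on 166 to 2889 counts per library and were chosen after the values of the 3 genes had been seen, so they carry no test. They are shares of 3′ reads and need not equal shares of molecules or protein.

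**Figure D1:**
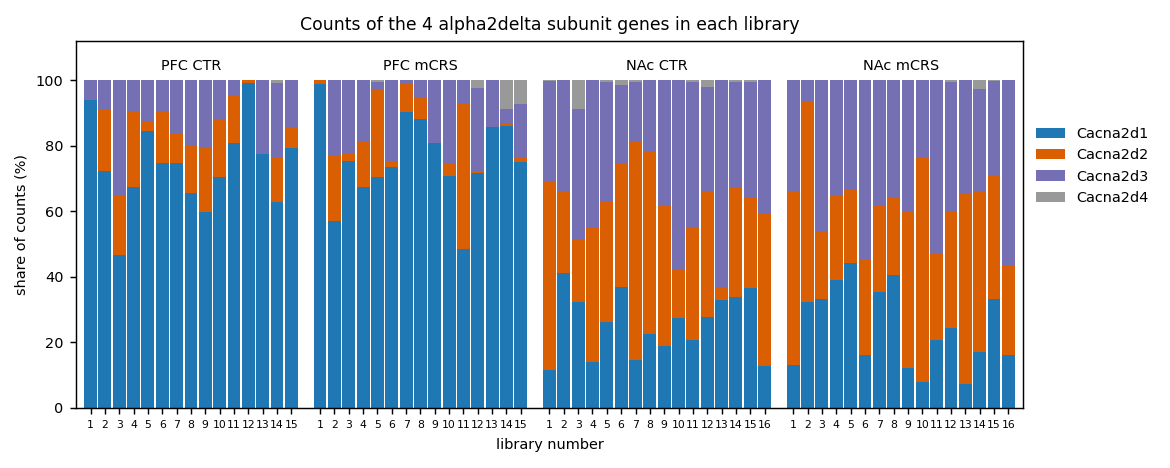
Share of the summed counts of Cacna2d1, Cacna2d2, Cacna2d3 and Cacna2d4 (%) in each library, by group, with the library number on the horizontal axis. Cacna2d1 makes up the largest part in the PFC, with at least 46.5% in each library, and at most 44.3% in each NAc library.

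The promoter windows of 4 called genes are shown, those of the 3 alpha2delta genes because they differed in opposite directions and that of Scn4b because its difference was the largest among the called genes. Each window runs from 250 bases before to 50 bases after a RefSeq transcription start (GRCm38.p6), read 5′ to 3′ on the strand of the gene, with GGGCGG and its reverse complement CCGCCC, the GC box bound by Sp1-type factors, in capitals.
Cacna2d1, chr5:15934441-15934740, plus strand: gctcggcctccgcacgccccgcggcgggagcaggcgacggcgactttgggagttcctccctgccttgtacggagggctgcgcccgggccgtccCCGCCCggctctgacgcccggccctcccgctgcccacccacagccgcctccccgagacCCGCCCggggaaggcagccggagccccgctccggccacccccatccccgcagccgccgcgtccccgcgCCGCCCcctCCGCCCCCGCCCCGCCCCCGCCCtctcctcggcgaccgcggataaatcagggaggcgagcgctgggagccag
Cacna2d2, chr9:107399630-107399929, plus strand: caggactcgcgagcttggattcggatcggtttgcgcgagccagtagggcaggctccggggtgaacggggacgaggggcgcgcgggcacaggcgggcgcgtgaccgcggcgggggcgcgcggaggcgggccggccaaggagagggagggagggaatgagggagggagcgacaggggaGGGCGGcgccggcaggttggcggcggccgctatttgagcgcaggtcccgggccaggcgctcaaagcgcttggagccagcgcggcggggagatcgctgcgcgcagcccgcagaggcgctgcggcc
Cacna2d3, chr14:29721815-29722114, minus strand: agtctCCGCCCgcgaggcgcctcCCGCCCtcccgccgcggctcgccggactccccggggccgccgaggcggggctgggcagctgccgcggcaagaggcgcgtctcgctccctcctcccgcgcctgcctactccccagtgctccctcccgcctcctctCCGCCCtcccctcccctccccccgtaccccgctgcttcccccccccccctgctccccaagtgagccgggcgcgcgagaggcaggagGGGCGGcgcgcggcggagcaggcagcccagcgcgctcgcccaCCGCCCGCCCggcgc
Scn4b, chr9:45138374-45138673, plus strand: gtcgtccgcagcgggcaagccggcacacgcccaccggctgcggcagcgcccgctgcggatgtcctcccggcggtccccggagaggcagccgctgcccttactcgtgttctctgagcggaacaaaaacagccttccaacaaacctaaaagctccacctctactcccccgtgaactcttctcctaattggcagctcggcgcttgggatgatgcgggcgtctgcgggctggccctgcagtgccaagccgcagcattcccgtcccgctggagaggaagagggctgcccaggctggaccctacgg
The GC box was found 7 times in the window of Cacna2d1, 1 time in that of Cacna2d2, 6 times in that of Cacna2d3 and 0 times in that of Scn4b, overlapping copies counted. Their GC content was 80.0%, 75.7%, 81.3% and 66.3%, against a median of 52.7% over 32851 windows. The table held 35 windows for 24 of the 33 channel genes. GGGCGG was in 14 of these 35 windows (40.0%) and in 35.7% of all windows. On both strands, TATAAA was in 2 (5.71% against 13.6%), the cAMP response element TGACGTCA in 0 (against 1.79%), and 2 parts of the site bound by the repressor REST, CAGCACC and GGACAG, in 0 (against 7.14%) and 6 (17.1% against 22.2%). A match is a run of letters only, and its absence from these windows says nothing of the factor.

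Scn4b, the beta subunit known for its part in resurgent sodium current and its high level in striatal projection neurons, showed a larger difference than any other called channel gene. Its levels (ENSMUSG00000046480, chr9:45138395-45154152, plus strand) were 2.29, 45.8 and 103 CPM in PFC CTR and 15.9, 229.6 and 399 CPM in NAc CTR. The lowest NAc value was that of library 7, and 5 PFC libraries lay below it. Without library 7 the lowest NAc value was 64.8 CPM, and 13 of 15 PFC libraries lay below that. The level was 5.71-fold higher in the NAc (log2 fold change -2.51 ± 0.40, FDR = 6.90e-06 by edgeR), and -2.59 without library 7 (FDR = 1.11e-06). The mean log2 CPM was 4.60 ± 1.71 (SD, n = 15) in PFC CTR and 7.46 ± 1.20 (SD, n = 16) in NAc CTR. Of the other sodium channel beta subunits, Scn2b and Scn3b did not pass the test, with log2 fold changes of 0.22 for Scn2b (95% interval -0.20 to 0.64) and -0.37 for Scn3b (-0.996 to 0.25). Scn2b lies close to Scn4b on chromosome 9, from 45117782 to 45130070 on the same strand, and had median levels of 156 CPM in PFC CTR and 157 CPM in NAc CTR.

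Among the gamma subunits, Cacng4 (ENSMUSG00000020723, chr11:107732357-107794557, minus strand), a TARP that traffics AMPA receptors, had 1.98, 27.8 and 103 CPM in PFC CTR and 1.91, 143 and 186 CPM in NAc CTR. All PFC libraries fell below the NAc median, while NAc CTR library 2, the shallowest of the series, lay below every PFC library. The level was 3.67-fold higher in the NAc (log2 fold change -1.87 ± 0.40, FDR = 7.83e-04 by edgeR), and -1.84 without library 7 (FDR = 0.00130). Without library 2 the value was -1.95 (FDR = 8.84e-05 by edgeR). The TARPs Cacng2 (stargazin), Cacng3 and Cacng7 did not pass, at -0.01, 0.17 and 0.54. For Cacng2 the interval of -0.49 to 0.46 excluded a 2-fold difference in either direction.

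The intracellular beta subunits, which bind the pore-forming subunit and aid its release to the membrane, all had positive values in CTR mice. Cacnb3 (ENSMUSG00000003352, chr15:98630840-98644529, plus strand) passed, with 51.9, 93.8 and 232 CPM in PFC CTR and 19.0, 57.8 and 118 CPM in NAc CTR. Its log2 fold change was 0.89 ± 0.28 (FDR = 0.0453 by edgeR), and the groups overlapped, with 6 PFC libraries above every NAc library. Without NAc CTR library 7 its FDR was 0.0610. In all, the call ended without PFC CTR library 3, 4, 5, 6, 8, 9 or 12, or without NAc CTR library 1, 2, 3, 4, 5, 7, 8, 9, 11, 12 or 16, with edgeR FDR values up to 0.113. Cacnb4 had a log2 fold change of 0.42 ± 0.19 (FDR = 0.262 by edgeR), Cacnb1 0.42 and Cacnb2 0.06. In mCRS mice 2 of the 4 had positive and 2 negative values, the latter being Cacnb1 at -0.44 and Cacnb2 at -0.25.

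Of the pore subunits, Scn2a (ENSMUSG00000075318, chr2:65620771-65767447, plus strand), the Nav1.2 channel of excitatory neurons, was the one called. It had 218, 434 and 677 CPM in PFC CTR and 150.2, 297 and 482 CPM in NAc CTR, with 13 of 15 PFC libraries above the NAc median. The difference was 1.46-fold (log2 fold change 0.55 ± 0.17, FDR = 0.0428 by edgeR), and without NAc CTR library 7 the FDR was 0.0302. The call ended without PFC CTR library 1, 3, 5, 6, 7, 10, 12, 14 or 15, or without NAc CTR library 2, 3, 4, 8, 9, 11, 13, 15 or 16, with edgeR FDR values up to 0.0970. Scn1a and Scn3a, of the same cluster on chromosome 2, did not pass, with -0.16 for Scn1a (Nav1.1, prominent in fast-spiking interneurons; 95% interval -0.66 to 0.34) and -0.45 for Scn3a (Nav1.3, best known from the developing brain; -1.29 to 0.39). Scn8a, the Nav1.6 channel of axon initial segments and nodes of Ranvier, had 0.17 with an interval of -0.17 to 0.50.

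None of the 8 calcium channel pore subunits was called, nor did any reach an unadjusted p under 0.05 by edgeR, a count of 0. Their log2 fold changes ran from -0.96 for Cacna1h to 0.89 for Cacna1g, both T-type channels. Values for the presynaptic types were 0.39 for Cacna1a (P/Q-type; 95% interval -0.17 to 0.94) and -0.13 for Cacna1b (N-type; -0.89 to 0.62). The R-type Cacna1e had -0.04, with an interval of -0.53 to 0.44 that excluded a 2-fold difference. The L-type genes Cacna1c and Cacna1d, at -0.36 and 0.06, and the T-type Cacna1i, at -0.30, had intervals that reached beyond 2-fold. Over all 28 channel genes tested the interval lay within 2-fold for 12.

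**Figure D2:**
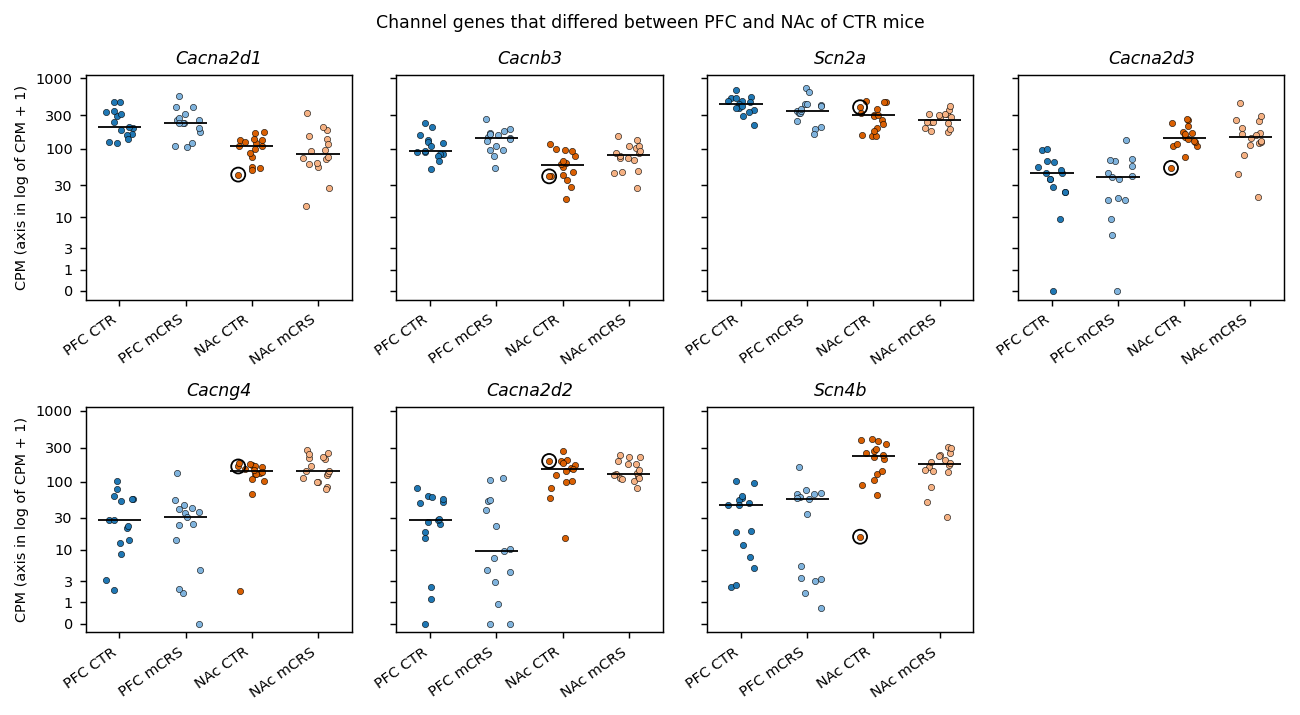
Level in each library (CPM, on an axis in log of CPM + 1) of the 7 channel genes called between PFC CTR and NAc CTR, for all 4 groups. Points are libraries, bars are medians and the ring marks NAc CTR library 7, which is the lowest NAc CTR library for Scn4b, Cacna2d1 and Cacna2d3.

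Cell type markers moved with region too. Among 14 striatal projection neuron markers 12 were called lower in PFC CTR (median log2 fold change -2.53), and of 12 cortical excitatory neuron markers 8 were called higher (median 3.47). The smallest p of each list was that of Tac1 (-3.05), which encodes substance P, and of Slc17a7 (3.17), the vesicular glutamate transporter of cortical neurons. The summed level of the cortical list was 1753 to 2763 CPM in PFC CTR and 191 to 1031 CPM in NAc CTR. Of 8 oligodendrocyte markers 6 were called lower in the PFC, at 1890.5 to 6435 against 5508 to 8538 CPM. Of 9 GABAergic neuron markers 2 were called higher and 3 lower, among them Gad1 and Gad2, which projection neurons of the NAc also use. Of the other lists, 1 of 5 oligodendrocyte precursor, 2 of 8 astrocyte and all 3 hypothalamus markers tested were called lower, 1 of 3 choroid plexus markers higher, and 0 of 7 microglia and 0 of 6 endothelial markers were called (edgeR, FDR), with 1 and 0 of these at an unadjusted p below 0.05. The part of cell make-up in the channel differences was not tested.

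Where the genes that work with the channels passed, most were higher in the PFC, and the calls over all genes leaned the same way. In CTR mice 4.23% of all genes tested were called higher in the PFC and 2.09% lower. Of 21 sodium channel partners tested, 4 were called higher and 1 lower in PFC CTR (median log2 fold change 0.23, all genes -0.02). The calmodulin gene Calm2 had 0.81, its relative Calm3 had 0.62 and Fgf13, an intracellular modulator of sodium channels, 1.39, while Fgf11, of the same family, fell by 3.31 on the log2 scale. Of 26 calcium channel partners 8 were called higher and 1 lower (median 0.19), led by the release machinery genes Snap25 (0.96), Stx1a (2.52) and Syt1 (0.87). Of 16 AMPA receptor subunits and auxiliary subunits 5 were called higher and 0 lower (median 0.20), with Olfm1 at 2.16, Gria3 at 1.13 and Frrs1l at 0.97. In mCRS mice 4 of 21 sodium channel partners were called higher and 1 lower, 6 and 3 of 25 calcium channel partners, and 3 and 1 of 16 AMPA receptor genes. There 4.23% of all genes tested were called higher and 2.07% lower.

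In mCRS mice, whose libraries are other than those above, 5 of the 6 channel genes called between regions were among the 7 called in CTR mice. Of 28 channel genes tested among 9452 genes, 2 were called higher and 4 lower in PFC mCRS than in NAc mCRS (edgeR, FDR below 0.05), where 4.23% and 2.07% of all genes tested were called. The 4 lower ones were those of CTR mice. Their log2 fold changes were -2.30 ± 0.43 for Cacng4 (FDR = 9.39e-05 by edgeR), -2.40 ± 0.50 for Cacna2d2 (FDR = 6.20e-04), -1.99 ± 0.42 for Cacna2d3 (FDR = 5.95e-04) and -1.99 ± 0.45 for Scn4b (FDR = 0.00156). Cacng4 had 0, 30.7 and 134 CPM in PFC mCRS and 77.7, 141 and 276 CPM in NAc mCRS, with 14 of 15 PFC libraries below every NAc library. For Cacna2d2 13 of 15 PFC mCRS libraries lay below every NAc mCRS library, with 0, 9.55 and 111 CPM against 82.1, 129.7 and 239.6 CPM. For Scn4b and Cacna2d3 6 of 15 did so.

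Cacna2d1 was again higher in the PFC, by 1.24 ± 0.28 (FDR = 0.00194 by edgeR), with 104, 233 and 553 CPM in PFC mCRS and 14.7, 85.5 and 321 CPM in NAc mCRS. Without NAc mCRS library 10, the one with choroid plexus markers and the lowest of its group for Cacna2d1, the value was 1.16 (FDR = 0.00247 by edgeR). Cacnb3 (0.77, FDR = 0.0844), Scn2a (0.49, FDR = 0.111) and Cacnb4 (0.55, FDR = 0.0631) did not pass edgeR's test there. Leaving out PFC mCRS library 11 brought Scn2a to an FDR of 0.0401, and leaving out NAc mCRS library 3 or 8 brought Cacnb3 to 0.0459 or 0.0452 (edgeR). Across the 27 channel genes tested in both cohorts the region differences had a Pearson r of 0.883 and a Spearman rho of 0.656, and 18 had the same sign. These are 27 genes of the same libraries, not independent points.

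**Figure D3:**
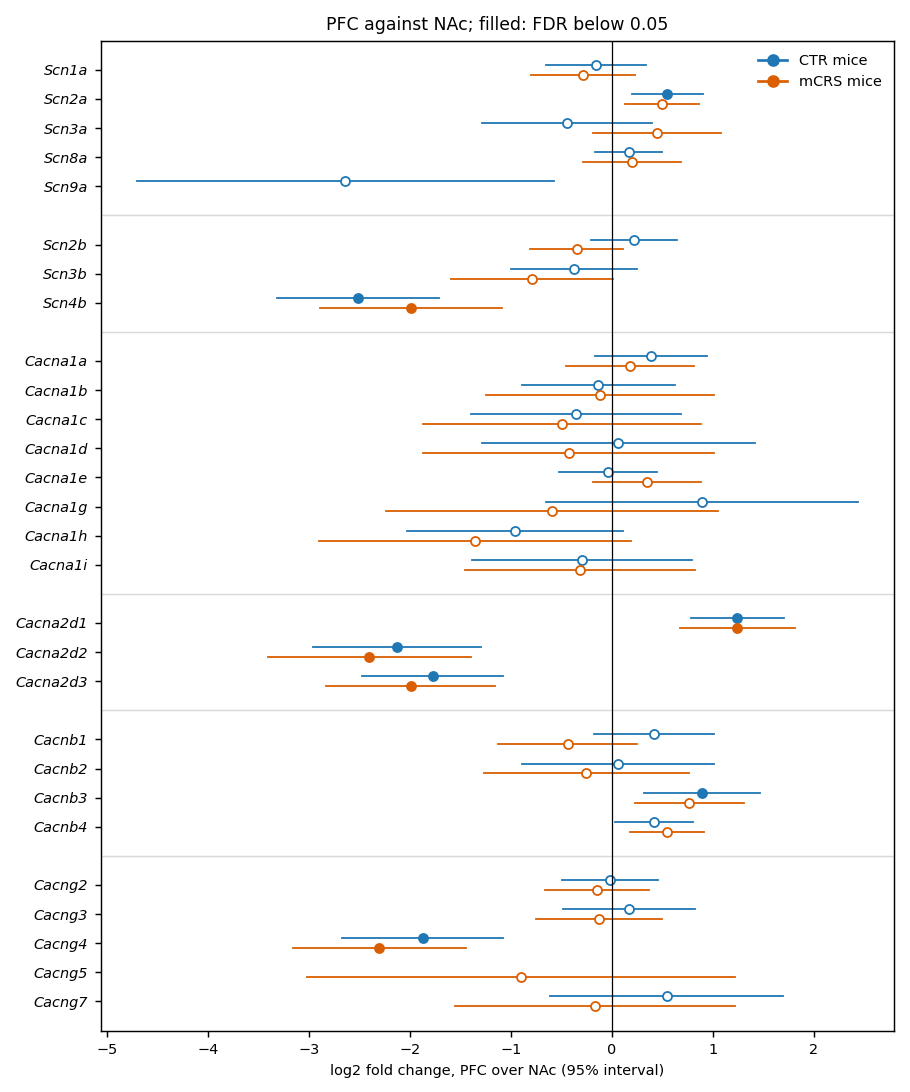
Log2 fold change of PFC over NAc (horizontal axis, with 95% intervals) for the channel genes tested and reported here, in CTR mice and in mCRS mice, grouped as sodium channel pore and beta subunits and calcium channel pore, alpha2delta, beta and gamma subunits. Filled points passed an FDR of 0.05, and the alpha2delta genes lie on both sides of 0 in both cohorts.

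A further 5 channel genes had too few counts for the filter in CTR mice, and 1 more in mCRS mice, and those reported here are described by their counts. Their counts were also fitted without the filter. Cacng5, another TARP, was lower in PFC CTR in that fit, with 8 counts in 2 PFC CTR and 391 counts in 13 NAc CTR libraries (FDR = 0.00547 by edgeR). The same held for Cacna2d4, the alpha2delta subunit best known from the retina, with 6 counts in 3 and 186 counts in 9 libraries (FDR = 0.0159 by edgeR). Of the NAc CTR counts of Cacna2d4, 44.6% lay in library 3. Without that library its FDR was 0.0763, while that of Cacng5 stayed at or below 0.0165 without any 1 library (edgeR, no filter). Fold changes of these genes depend on the prior count of the fit, so their counts are given in place of a fold between regions.

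In mCRS mice the same unfiltered fit called neither Cacng5 nor Cacna2d4. Cacna2d4 had 131 counts in 4 PFC mCRS libraries, 58.0% of them in library 14. It had 55 counts in 4 NAc mCRS libraries, 83.6% of them in library 14. Its counts were thus higher in the PFC, opposite to CTR mice. In that opposite direction it came to an FDR of 0.0390 without NAc mCRS library 14 (edgeR). Cacng5 had 195 counts in 4 PFC mCRS libraries, 56.9% of them in library 12, and 770 in 13 NAc mCRS libraries. Scn7a, which encodes the sodium sensor Nax and not a voltage-gated channel in the strict sense, had 515 counts in 10 PFC CTR and 194 in 6 NAc CTR libraries, and 358 in 7 PFC mCRS and 9 in 3 NAc mCRS libraries. Its unfiltered FDR was 0.457 in CTR and 0.00291 in mCRS mice (edgeR). PFC mCRS library 11 held 44.1% of the counts of its group, and without it that FDR was 0.0109, the highest without any 1 library. Scn9a, the Nav1.7 channel of sensory neurons, passed the filter in CTR mice, with 158 counts in 6 PFC CTR and 1151 in 15 NAc CTR libraries. It passed through its NAc CTR level, 66.5% of its PFC CTR counts lay in library 9, and NAc CTR library 7 held its highest level, so no fold change is given. Cacng8, a TARP, had 286, 273, 281 and 338 counts in PFC CTR, PFC mCRS, NAc CTR and NAc mCRS.

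**Figure D4:**
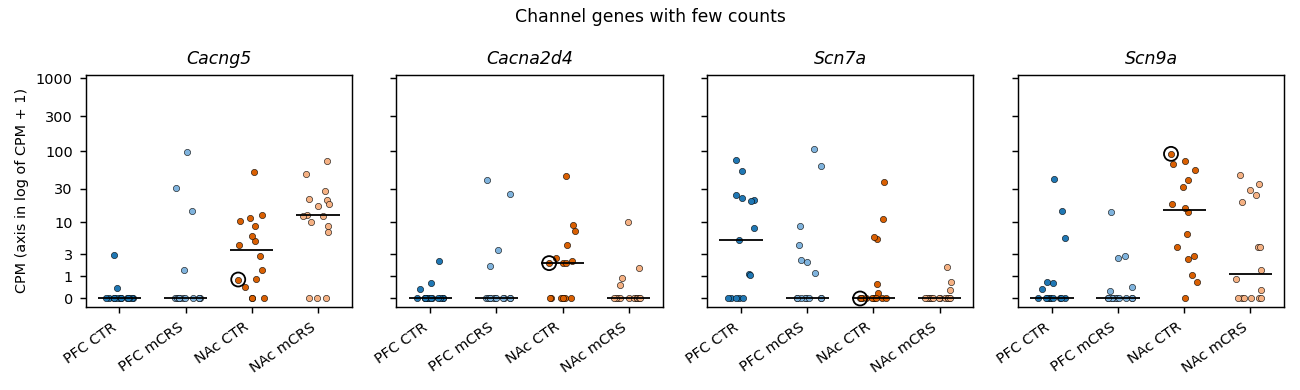
Level in each library (CPM, on an axis in log of CPM + 1) of 4 channel genes with few counts, in the 4 groups. Points are libraries, bars are medians and the ring marks NAc CTR library 7. Cacng5 has a count in 2 of 15 PFC CTR and 13 of 16 NAc CTR libraries, and Scn7a in 10 and 6.

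No channel gene passed an FDR of 0.05 for stress in either region. In the PFC, 27 of the 33 were tested among 8916 genes, and 0 passed in edgeR or in DESeq2, as did 0% of all genes tested in edgeR. At an unadjusted p below 0.05, 0 passed in edgeR and 2 in DESeq2. Of all genes tested, 2.12% and 1.38% had such a p with a higher or a lower level in edgeR, and 439 of 8916 in DESeq2. Of the 27, 8 had positive and 19 negative values, with a median log2 fold change of -0.16 against -0.01 over all genes. Over all 8916 genes, 4397 had positive and 4519 negative values. Of 12 cortical excitatory neuron markers tested in the PFC 10 had negative values (median -0.27), with summed levels of 1348 to 2471 CPM in PFC mCRS and 1753 to 2763 CPM in PFC CTR, and of 8 astrocyte markers 7 did (median -0.17). None of them passed an FDR of 0.05 in edgeR, and 0 of the cortical and 1 of the astrocyte markers had an unadjusted p below 0.05. Other lists leaned the other way, with positive values for 5 of 7 GABAergic, 5 of 8 oligodendrocyte and 5 of 7 microglia markers tested. Negative values were seen for 7 of 13 striatal, 3 of 4 oligodendrocyte precursor, 3 of 5 endothelial and 1 of 2 choroid plexus markers. The share of genes with a count was 82.3% in PFC mCRS against 87.1% in PFC CTR, and Scn8a is given below with that share as a covariate. The part of the markers or of that share in the negative values of the channel genes as a set was not tested.

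In the NAc 31 channel genes were tested among 10141 genes, and 0 passed an FDR of 0.05 in edgeR or in DESeq2, against 0.00986% of all genes in edgeR. An unadjusted p below 0.05 was found for 2 in either tool, both lower in mCRS, against 0.986% of all genes higher and 1.06% lower in edgeR. In DESeq2 338 of the 10141 genes had such a p. The median log2 fold change was -0.00482 over the 31 and -0.00604 over all genes. Scn8a had 43.4, 161 and 379.6 CPM in NAc mCRS and 139, 244 and 302 CPM in NAc CTR, so that 14 of 16 mCRS libraries lay below the CTR median while the highest level of all was also an mCRS library. Its log2 fold change was -0.44 ± 0.20 (p = 0.0306, FDR = 0.99995 by edgeR). Without NAc CTR library 7, the lowest of its group, it was -0.47 (p = 0.0215 by edgeR). The p rose to at most 0.0566 in edgeR without NAc mCRS library 5, 6 or 13, or without NAc CTR library 14. It was 0.0549 with counts thinned to 1 total and 0.451 with libraries 1 to 8 alone, where the log2 fold change was -0.23 (edgeR, without adjustment).

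In the PFC Scn8a had the smallest p of the 27 genes. Its levels were 58.7, 212 and 354 CPM in PFC mCRS and 117, 278 and 379 CPM in PFC CTR, with 14 of 15 mCRS libraries below the CTR median. The log2 fold change was -0.40 ± 0.21 (95% interval -0.82 to 0.01, p = 0.0579 by edgeR), and -0.33 (p = 0.151) when that share of genes was a covariate. Neither value passed the test over all genes. The 2 regions came from the same cohorts, so they are not independent observations.

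Cacna1b, the N-type pore, was the other gene below 0.05 in the NAc, with 8.81, 36.2 and 108 CPM in mCRS and 19.2, 64.8 and 145 CPM in CTR. A total of 11 of 16 mCRS libraries fell below the CTR median, and 5 below every CTR library. Its log2 fold change was -0.78 ± 0.37 (p = 0.0389, FDR = 0.99995 by edgeR). The p was above 0.05 without NAc CTR library 3, 7, 8, 11 or 12, or without NAc mCRS library 1, 9, 10, 12, 14, 15 or 16, reaching 0.0769 in edgeR, and it was 0.0643 without NAc CTR library 7 and 0.0570 without NAc mCRS library 10. The p was 0.0901 in 1 fit of all 62 libraries, 0.233 with libraries 1 to 8 alone and 0.0669 with libraries 9 and above (edgeR, without adjustment). In the PFC Cacna1b had a log2 fold change of -0.75, with a wide interval of -1.85 to 0.34.

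The 7 genes called between the regions of CTR mice had stress values with intervals that varied in width. The values ran from -0.32 for Scn4b to 0.44 for Cacnb3, both in the NAc. These fits share the CTR libraries with the region comparison. The value of Cacna2d1 was 0.07 for the PFC (-0.39 to 0.52) and 0.06 for the NAc (-0.52 to 0.64), both intervals within 2-fold. For Cacna2d2 the interval was within 2-fold in the NAc (-0.43 to 0.50) but not in the PFC (-1.74 to 1.27), where its counts were few. The same was true of Cacna2d3 (-0.39 to 0.63 and -1.25 to 1.08), Scn4b (-0.85 to 0.22 and -1.06 to 1.48) and Cacng4 (-0.23 to 0.79 and -1.45 to 1.14). Scn2a had -0.20 (PFC) and -0.15 (NAc), and Cacnb3 0.32 and 0.44. The interval of Cacnb3 in the NAc, -0.16 to 1.04, reached beyond 2-fold. Over all channel genes tested, the interval lay within 2-fold for 12 of 27 in the PFC and 17 of 31 in the NAc, so a 2-fold change was not excluded for the rest.

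**Figure D5:**
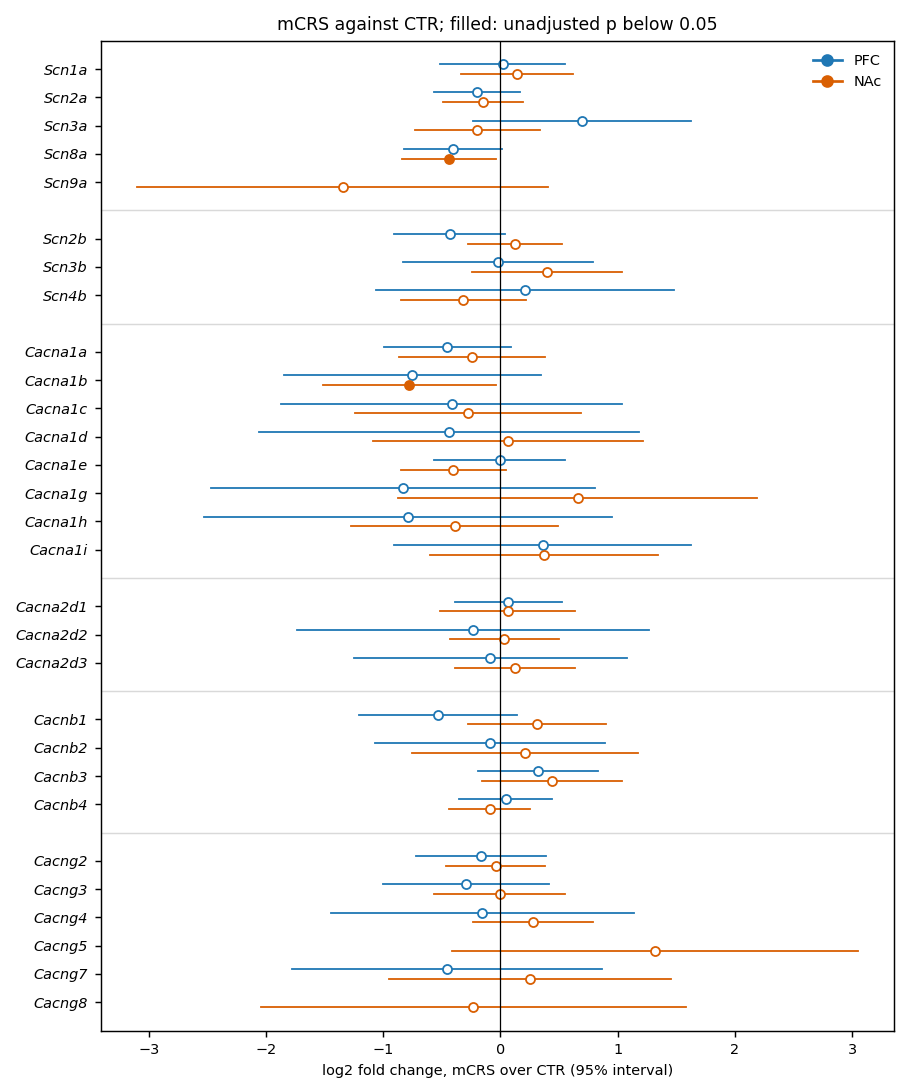
Log2 fold change of mCRS over CTR (horizontal axis, with 95% intervals) for the channel genes tested and reported here in the PFC and in the NAc, in the same subunit groups. Filled points had an unadjusted p below 0.05, which holds for Scn8a and Cacna1b in the NAc, and no gene passed an FDR of 0.05.

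The partner genes did not pass under stress either. At an FDR of 0.05, 0 of the sodium channel partners, calcium channel partners and AMPA receptor genes passed in either region (edgeR). At an unadjusted p below 0.05, 2 of 20 sodium channel partners passed in the PFC, Calm2 at 0.40 (p = 0.00234 by edgeR's test without adjustment, FDR = 0.826) and the ubiquitin ligase Nedd4l at -0.65. In the NAc 2 of 22 did, the spectrin Sptbn4 at 0.73 and Calm2 at 0.24. Of the calcium channel partners 2 of 24 passed in the PFC, Camk2a at -0.36 and Gnao1 at -0.29, and 0 of 26 in the NAc. Of the 16 AMPA receptor genes 0 passed in either region. Over all genes tested in edgeR, 2.12% had such a p with a higher and 1.38% with a lower level in the PFC. In the NAc these shares were 0.986% and 1.06%. Medians of the sodium, calcium and AMPA lists were -0.06, -0.08 and -0.31 for PFC stress and -0.05, -0.03 and 0.04 for NAc stress.

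The difference of the stress effect between regions was tested in 1 fit of all 62 libraries, for 32 of the channel genes among 11025 genes. None passed an FDR of 0.05 in edgeR or in DESeq2, against 0.00907% of all genes in edgeR, and 3 had an unadjusted p below 0.05 in edgeR and 5 in DESeq2. All 3 values of edgeR were positive, meaning a larger ratio of mCRS to CTR in the PFC. In edgeR 1.45% of all genes had such a p in that direction and 1.64% in the other. In DESeq2 442 of the 11025 genes had such a p in either direction. The 3 of edgeR included Cacng5 (p = 0.0144, FDR = 0.99997 by edgeR) and Scn7a (p = 0.0221 by edgeR), both genes with few counts. Cacng5 had 8 counts in 2 PFC CTR libraries, and Scn7a had 9 counts in 3 NAc mCRS libraries. They passed the filter through other groups, and their values rest on a nearly empty group and on the prior count, so no fold change is given. For Cacng5 the p was 0.110 without PFC mCRS library 12, and for Scn7a it was 0.0883 without PFC mCRS library 11 and 0.101 without NAc CTR library 12 (edgeR, without adjustment). The interval of this difference lay within 2-fold for 8 of the 32 genes.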

How the data were processed

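PFC and NAc libraries were made by BRB-seq, in which oligo-dT primers carry a sample barcode and only the 3′ end is read, so splice forms are not separated. The authors removed 2 PFC samples for poor quality, aligned them by STAR to mm10 (GRCm38) and counted uniquely mapped reads per gene with HTSeq (version 0.9.1 in the submitters' processing notes). The deposited values are raw counts of 11121 genes in 62 libraries. Reads were not collapsed by molecular identifiers, and whether counting used strand is not stated. Within 2000 bases of the 3′ end, 5 of the channel genes have a neighbour on the opposite strand (Cacna1d, Cacna1h, Cacnb4, Scn2b and Scn9a) and Cacng8 has one on its own strand.

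From these counts, genes were filtered with filterByExpr by group (at least 10 counts, 15 in total), scaled by TMM and tested with edgeR 4.0.16 (glmQLFit and glmQLFTest, R 4.3.3) over all genes, with Benjamini-Hochberg adjustment (FDR) and calls below 0.05. CPM values use TMM factors of all 62 libraries, and log2 CPM a prior count of 2. Alternatives were DESeq2 1.42.0, RLE size factors, other filters, removal of mtDNA genes, a common fit, the replicate number as a block, thinning, a covariate for the share of genes detected, parts of the numbering and each library left out. Leaving out libraries of the interaction, and of the fit with no filter, was added after seeing the data. Some genes tested are counted but not reported here by name. The genes and lists were chosen with earlier results of these data known. Genes were named in full where they passed an FDR of 0.05 between PFC CTR and NAc CTR or an unadjusted p below 0.05 for stress or the interaction, and of each list the 3 genes with the smallest p of a comparison. Fgf11 and Fgf13 were named after their values were seen. Promoter windows came from RefSeq (GRCm38.p6). Same-numbered libraries did not deviate together, and replicates differed by more than sampling noise.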

Additional observations from a re-analysis of the deposited data

How the results depend on the processing

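The 5 large region differences (Scn4b, Cacna2d1, Cacna2d2, Cacna2d3 and Cacng4) kept their direction in every alternative, in both cohorts. They stayed below an FDR of 0.05 in each of the 31 fits that left out 1 library. In CTR mice Cacna2d2, Cacna2d3, Cacng4 and Scn4b were called in 10 of the 11 other alternatives, with an FDR of 0.0683, 0.0756, 0.316 and 0.136 at most. In mCRS mice this held for Cacna2d1, Cacna2d3 and Scn4b, at 0.194, 0.0868 and 0.121. The rest were called in all 11. DESeq2 called the same 7 genes in CTR mice, and in mCRS mice Cacna2d1 and Cacnb3 as the higher genes. It called 815 of all 9932 genes in CTR mice and 773 of 9452 in mCRS mice. The count of genes higher in PFC CTR was 3 and came to 1 with RLE size factors, with counts thinned to 1 total, with libraries 1 to 8 and with libraries 9 and above, each time without Cacnb3 and Scn2a. The count lower in PFC CTR was 4 and came to 7 with no filter and to 1 with libraries 1 to 8. Over all genes, in either direction, the main fit of CTR mice called 628 of 9932 and RLE size factors 613. Thinning called 632 of 8711 and no filter 695 of 11121. Libraries 1 to 8 called 192 of 9307, and libraries 9 and above 463 of 10140. In mCRS mice the count higher in the PFC was 2 and came to 1 with RLE size factors, with thinning, with a covariate for the share of genes detected, with libraries 9 and above and with the replicate block, and to 0 with libraries 1 to 8. The count lower was 4 and came to 2 with libraries 1 to 8. Over all genes, the main fit of mCRS mice called 596 of 9452, RLE size factors 578, the covariate 467 and the block 588. Thinning called 592 of 8501. Libraries 1 to 8 called 213 of 9173, and libraries 9 and above 300 of 9350. Leaving out 1 library gave 1 to 3 genes higher and 4 to 5 lower in CTR mice, and 1 to 4 higher and 4 to 4 lower in mCRS mice. Stress and interaction counts were 0 in all alternatives and all fits that left out a library. With libraries 1 to 8 the interaction was reversed for Cacng5 (-1.48) and Scn7a (-1.41). The cause was not tested. Of the other values of single genes under these alternatives, 175 kept direction and side of the threshold, 35 moved above 0.05 and 1 moved below it. The threshold was an FDR for region differences and an unadjusted p for stress and the interaction, where no gene was called.

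Deviations of same-numbered PFC and NAc libraries had correlations of at most 0.0249 in CTR mice and 0.0198 in mCRS mice. Of 15 such pairs, 1 in CTR and 2 in mCRS mice correlated best with their own number. Between CTR and mCRS libraries of a region, which are of different mice, the correlations were at most 0.0508. How far 2 regions of 1 mouse would correlate here is not known, so these values cannot decide whether equal numbers mark 1 mouse. With the replicate number as a block, 610 of all 9932 genes were called in CTR mice and 588 of 9452 in mCRS mice. The main fits called 628 and 596. Of the channel genes, 2 were then higher and 5 lower in PFC CTR, with Cacnb3 lost and Scn9a gained. In PFC mCRS 1 was higher and 5 lower, with Cacna2d1 still the higher gene and Cacng5 gained. Scn9a had no count in 9 of 15 PFC CTR libraries and Cacng5 in 11 of 15 PFC mCRS libraries, so these gains rest on few PFC counts. The block moved the median log2 fold change of all genes to -0.12 in CTR mice, -0.23 in mCRS mice and -0.14 for stress in the PFC, and changed no other count. The fit of all 62 libraries is itself the interaction's main fit, so it gave no alternative there.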
